A study of Homo sapiens and Mus musculus with 56 samples.

Results

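Macrophages and monocytes of the host were followed through 43 mouse genes in subcutaneous xenografts of 5 human glioblastoma lines. The genes were taken from a list of symbols and read on mouse whole-transcript arrays, and 42 of the 43 could be measured among 19938 mouse genes. Ly6c2, which encodes the Ly6C surface protein of inflammatory monocytes, was the exception, because its 2 probe sets also name Ly6c1. The list was divided by known roles, with earlier results of these data also known. It held 8 monocyte genes (7 measured), 18 genes shared by monocytes and macrophages, and 15 genes of resident or differentiated macrophages. The arginine-consuming enzymes Arg1 and Nos2 formed the last group. The division is not sharp, since Lyz2 of the monocyte group is also expressed by macrophages.

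Monocytes leave the blood through CCR2 and its chemokine ligands, and mature in tissue into macrophages under CSF1 or IL34, which both act through CSF1R. During that maturation Ccr2 and Ly6C are lost, while F4/80 (Adgre1), the complement C1q chains and scavenger receptors such as CD163 and the mannose receptor MRC1 are gained. Glioblastomas are known to hold many such cells, made up of brain-resident microglia and cells from blood. A flank tumour has no microglia, so the cells read here would come from blood and from the macrophages of skin, fat and muscle.

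The tumours were grown from 500000 cells of SF295, U118, U87M2, DBM2 or U251M2 under the skin of the flank of nude mice, which lack mature T cells. The labels describe each line as human glioblastoma cells, and they give the tissue as brain tumour although the site was the flank. For 7 days the mice received either vehicle (MC 400 at 0.5%, Tween 80 at 0.05%) or V-4084 at 30 mg per kg, a small molecule that the labels describe as a selective inhibitor of the MET receptor kinase. Each of the 10 groups held 3 arrays, apart from SF295 with vehicle and U251M2 with V-4084, which held 2 each. The sources used here do not state age, sex or whether repeats were separate mice, so p-values measure only the spread between arrays, which may be technical.

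Levels are log2 intensities, so a difference of 1 is a doubling. Array medians ran from 6.11 to 6.31 and the SD within an array from 1.76 to 1.88, and precision is limited by how few arrays a group held. Differences were tested with limma across all 19938 genes with Benjamini-Hochberg adjustment, and a gene was called at an adjusted p under 0.05. Of the 42 genes, 37 had a mean over all arrays above the median gene level of 6.49, and Cd163, Marco, Vsig4, Arg1 and Nos2 lay below it. Skeletal muscle genes varied most between repeats: their mean level was 10.42 on U118 vehicle array 2, against 9.02 to 9.17 on the other U118 vehicle arrays, and it spanned 6.42 to 9.47 over DBM2 vehicle arrays. In bulk tumours, fewer cells of a type and less RNA per cell cannot be told apart. The share of mouse RNA in the tumours of each line was not measured here.

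The first question was how the level of host myeloid genes differed between untreated tumours. All 42 genes differed between the 5 vehicle groups (limma F test), against 54.3% of all mouse genes. The gap between the highest and lowest line mean had a median of 1.67 over the 42 genes, with a lowest value of 0.33 (Nos2) and a highest of 3.65 (Clec12a). Over all genes the median gap was 0.39. A gap above 1 was found for 37 of the 42 genes (88.1%) and for 6.05% of all genes. SF295 tumours held the highest mean for 29 of the 42 genes and U118 tumours for 10, while the lowest mean lay in DBM2 for 19, in U87M2 for 10 and in U251M2 for 7.

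**Figure D1:**
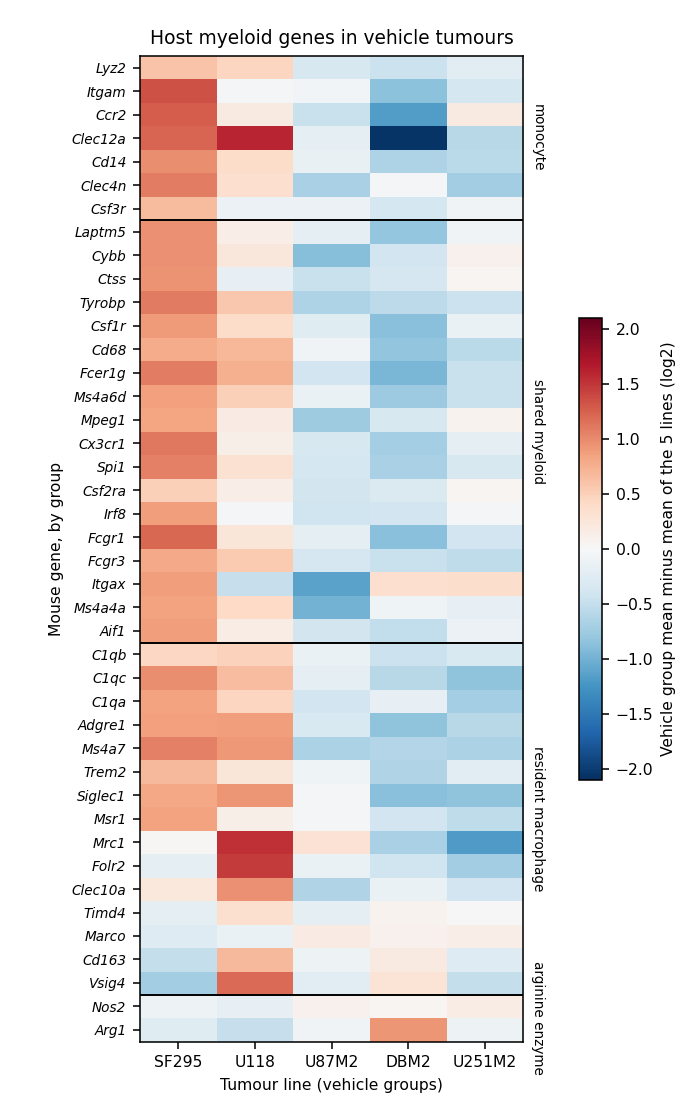
Vehicle group mean of each gene minus its mean over the 5 lines (log2, colour scale from -2.1 to 2.1), with genes in rows by role and lines in columns. SF295 is highest for 29 of 42 genes, whereas Mrc1, Folr2 and Vsig4 are highest in U118 and Arg1 in DBM2.

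Over the 10 pairs of vehicle groups, 266 of 420 gene comparisons were called, against 22.7% over all genes. Between SF295 and the 3 lines U87M2, DBM2 and U251M2, the number of genes higher in SF295 was 33 in each pair, against 15.5%, 14.7% and 14.8% of all genes. Lower in SF295 were 1, 4 and 2 genes, against 20.7%, 17.1% and 25.3%. U118 was higher in 34, 30 and 28 genes against the same lines, where the background was 13.7%, 12.8% and 12.7%, and lower in 3, 2 and 4, with backgrounds of 17.3%, 13.9% and 22.3%. The 3 lower lines differed less from each other. U87M2 exceeded DBM2 in 15 genes (background 4.65%) and lay below it in 3 (4.7%). U87M2 exceeded U251M2 in 4 (2.57%) and lay below it in 6 (2.99%), and DBM2 exceeded U251M2 in 3 (2.02%) and lay below it in 7 (2.28%). SF295 and U118 were both called above each of the other 3 lines for 18 of the 42 genes, namely 3 monocyte, 9 shared and 6 resident macrophage genes, against 4.22% of all genes.

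Among the monocyte genes, Clec12a differed most between lines. It encodes an inhibitory C-type lectin of myeloid cells. Its vehicle arrays read 8.74 and 8.85 (SF295), 9.37, 8.88 and 9.24 (U118), 7.15, 7.25 and 7.75 (U87M2), 5.74, 5.63 and 5.18 (DBM2), and 6.77, 7.12 and 7.07 (U251M2). Every SF295 and U118 array lay above every array of the other lines, and every DBM2 array lay below all of them. The differences between U118 and SF295 (adjusted p = 0.32) and between U87M2 and U251M2 (adjusted p = 0.245) did not pass the test, whereas DBM2 lay 1.47 below U251M2 (adjusted p = 6.54e-06, limma).

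Itgam, the CD11b integrin chain by which monocytes and neutrophils adhere, set SF295 apart. Its vehicle arrays read 9.50 and 9.50 (SF295), 8.20, 8.27 and 7.94 (U118), 8.09, 7.99 and 8.26 (U87M2), 7.55, 7.21 and 7.16 (DBM2), and 7.83, 7.80 and 7.78 (U251M2). SF295 exceeded U118, the next line, by 1.37 ± 0.18 (limma SE), or 2.58-fold, with an adjusted p of 1.59e-05. The other neighbouring lines in the order did not pass the test.

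Ccr2, the chemokine receptor that carries monocytes from blood into tissue, was also highest in SF295. Its mean was 9.24 ± 0.18 (SD, n = 2) in SF295, 8.16 ± 0.48 (n = 3) in U118, 8.15 ± 0.33 (n = 3) in U251M2, 7.49 ± 0.26 (n = 3) in U87M2 and 6.78 ± 0.28 (n = 3) in DBM2. DBM2 was called below each of the other 4 lines. Cd14, the co-receptor for bacterial lipopolysaccharide, ran from 8.37 ± 0.17 (SD, n = 2) in SF295 to 6.75 ± 0.12 (n = 3) in DBM2. Lyz2, the lysozyme of monocytes, macrophages and neutrophils, was nearly level between SF295 and U118 (12.22 and 12.07) and lay between 11.17 and 11.38 in the other lines.

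Among the genes shared by both cell states, the adaptors Fcer1g and Tyrobp and the receptors Csf1r and Cx3cr1 had their highest means in SF295 and the next highest in U118, and the steps between lines varied from gene to gene. Fcer1g, the signalling chain of Fc receptors, had a mean of 10.59 ± 0.20 (SD, n = 2) for SF295 and 10.27 ± 0.10 (n = 3) for U118. It was 9.12 ± 0.15, 9.06 ± 0.13 and 8.57 ± 0.12 (n = 3 each) for U87M2, U251M2 and DBM2. The lowest SF295 or U118 array, at 10.17, lay above the highest array of the other lines, at 9.29, and the step from U118 to U87M2 was 1.15 (adjusted p = 1.13e-06, limma). Tyrobp, the DAP12 adaptor of TREM2 and other myeloid receptors, had means of 10.93 in SF295 and 10.40 in U118 (adjusted p = 0.0384, limma) against 9.19 to 9.38 elsewhere. Csf1r, the receptor for CSF1 and IL34, formed a ladder from 10.61 ± 0.16 (SD, n = 2) in SF295 and 10.10 ± 0.10 (n = 3) in U118 to 8.84 ± 0.20 (n = 3) in DBM2, with U251M2 and U87M2 not separated from each other (9.58 and 9.47, adjusted p = 0.778). Cx3cr1, the fractalkine receptor, exceeded its next line in SF295 by 0.98 ± 0.12 (limma SE).

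Of the shared genes, Itgax went against the general order. It encodes CD11c, an integrin chain of dendritic cells and of part of the macrophages. Its vehicle arrays read 8.62 and 8.93 (SF295), 7.80, 6.93 and 7.52 (U118), 6.54, 7.12 and 6.66 (U87M2), 8.13, 8.31 and 8.31 (DBM2), and 8.14, 8.25 and 8.42 (U251M2). U118, high for most of the genes, lay below all DBM2 and U251M2 arrays here, and U87M2 was called below each of the other 4 lines. Ms4a4a, a tetraspan membrane protein of macrophages, was likewise called lower in U87M2 than in every other line, at 6.93 ± 0.51 (SD, n = 3) against 7.74 to 8.76. Calls of this kind in U87M2 amounted to 0.471% of all genes.

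The resident macrophage genes were less uniform. Adgre1, the F4/80 marker, read 9.95 and 9.99 (SF295), 10.08, 9.93 and 9.94 (U118), 8.59, 8.89 and 8.89 (U87M2), 8.42, 8.22 and 8.16 (DBM2), and 8.60, 8.43 and 8.54 (U251M2). SF295 and U118 differed by 0.01 (adjusted p = 0.98) and lay 1.18 above U87M2 (adjusted p = 2.79e-07, limma). Ms4a7, a relative of Ms4a4a expressed on macrophages, gave the same picture, with means of 9.91 in SF295 and 9.77 in U118 against 8.19 to 8.24 in the others. Siglec1, the sialic acid receptor CD169 of tissue macrophages, stood at 9.45 and 9.35 in U118 and SF295, 8.50 in U87M2, and 7.69 and 7.65 in U251M2 and DBM2.

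For C1qa, which encodes the A chain of complement C1q, the means were 10.93 in SF295, 10.53 in U118 and 9.38 to 9.91 in the other lines. Trem2, a lipid-sensing receptor of macrophages, ran from 9.55 in SF295 to 8.23 in DBM2. A second set of resident genes peaked in U118: Mrc1, Folr2 and Vsig4 were called above each of the other 4 lines there, against 1.05% of all genes. Marco, a scavenger receptor, and Timd4, a receptor for phosphatidylserine on long-lived resident macrophages, moved little, with gaps between line means of 0.44 and 0.54.

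Of the 2 enzymes, Arg1, which converts arginine to ornithine and is used as a marker of tumour-associated macrophages, was highest in DBM2. Its vehicle arrays read 5.77 and 5.53 (SF295), 5.45, 5.35 and 5.45 (U118), 5.70, 6.13 and 5.66 (U87M2), 6.95, 6.69 and 6.87 (DBM2), and 5.75, 5.91 and 5.74 (U251M2). Every DBM2 array lay above every other vehicle array, and the step down to U87M2 was 1.01 (adjusted p = 2.54e-05, limma). DBM2 was called above all 4 other lines for Arg1 alone among the 42 genes, against 0.838% of all genes. Nos2, the inducible nitric oxide synthase, spanned 5.96 to 6.29 and no neighbouring lines passed the test.

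**Figure D2:**
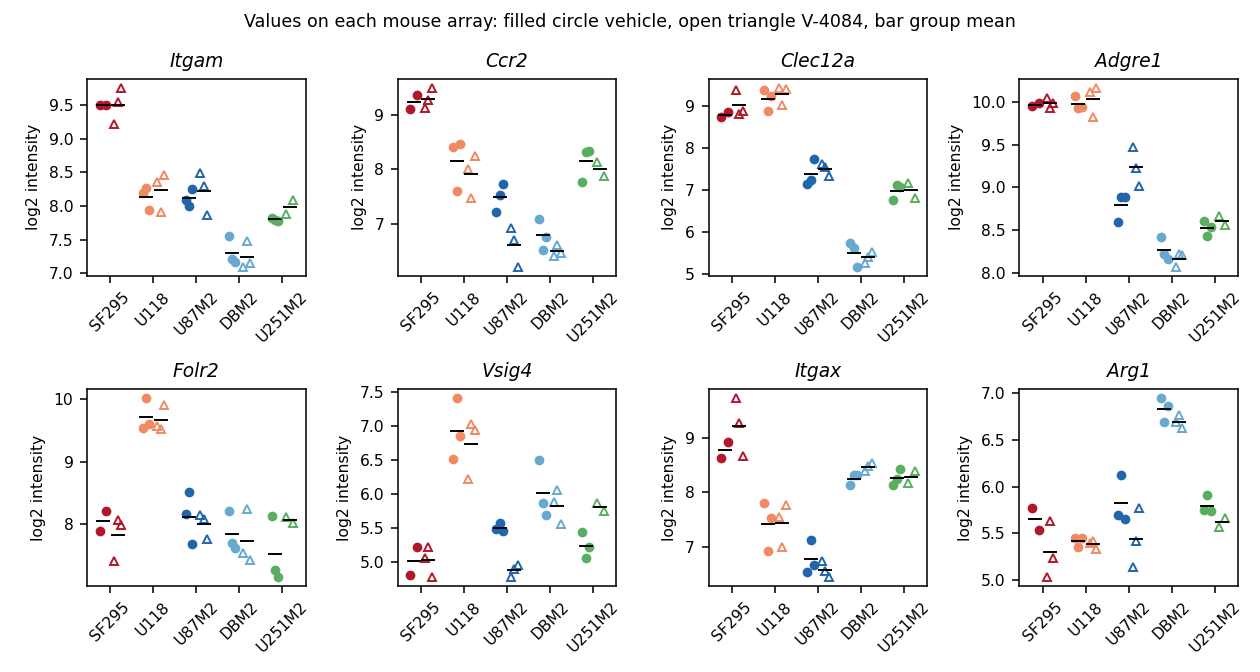
Log2 intensity of 8 genes on each of the 28 mouse arrays, by line, with filled circles for vehicle, open triangles for V-4084 and bars for group means. Itgam and Ccr2 are highest in SF295, Folr2 and Vsig4 in U118 and Arg1 in DBM2, and Itgax is low in U118 and U87M2.

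SF295 was called above all 4 other lines for 15 of the 42 genes, against 2.5% of all genes. They were 4 monocyte genes (Ccr2, Csf3r, Cd14, Itgam) and 11 shared genes, including the myeloid transcription factors Spi1 and Irf8, and none was a resident macrophage gene. The count was 9 without SF295 vehicle array 2 or without U118 vehicle array 2. DBM2 was called below all 4 other lines for 6 genes (Ccr2, Clec12a, Csf1r, Fcer1g, Laptm5, Cx3cr1), against 0.492% of all genes. That count was 3 without DBM2 vehicle array 2, without DBM2 vehicle array 3 or without U87M2 vehicle array 3.

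Monocyte and resident genes were next compared between the 2 lines with the highest levels. In SF295 tumours 16 genes were higher than in U118 tumours, against 4.08% of all genes: 4 of 7 monocyte genes, 12 of 18 shared genes and 0 of 15 resident macrophage genes. In U118 tumours 5 genes were higher, against 2.92% of all genes, and all 5 were resident macrophage genes. The median difference, SF295 minus U118, was 0.72 for monocyte genes, 0.69 for shared genes and -0.10 for resident genes, with -0.01 over all genes. Because the gene groups were drawn up with results of these data known, these counts and medians are a description.

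The 5 genes higher in U118 are surface receptors of tissue macrophages. Vsig4, the complement receptor CRIg, read 4.81 and 5.22 in SF295 against 6.51, 7.41 and 6.85 in U118, a difference of -1.91 ± 0.24 (limma SE; adjusted p = 1.2e-05). Folr2, folate receptor beta, read 7.89 and 8.21 against 9.55, 10.02 and 9.60 (difference -1.67 ± 0.27, adjusted p = 0.000281). Mrc1, the mannose receptor CD206, read 8.67 and 8.81 against 10.24, 10.35 and 10.16 (difference -1.51 ± 0.27, adjusted p = 0.000651). For each of these genes all U118 arrays lay above both SF295 arrays.

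Cd163, the haemoglobin scavenger receptor, differed by -1.18 ± 0.22 and Timd4 by -0.54 ± 0.14 (limma SE). The other 10 resident genes did not pass the test, and their differences ran both ways. Msr1 had 0.72 ± 0.25 (adjusted p = 0.093), on the side of the monocyte genes, and Clec10a -0.74 ± 0.36 (adjusted p = 0.258, limma). Between them lay Trem2 (0.43), C1qa (0.39), C1qc (0.34), Ms4a7 (0.14), Adgre1 (-0.01), C1qb (-0.05), Siglec1 (-0.10) and Marco (-0.13). On the other side, Itgam differed by 1.37 ± 0.18, Itgax by 1.36 ± 0.24, the lysosomal protease Ctss by 1.11 ± 0.12, Ccr2 by 1.08 ± 0.25 and Cx3cr1 by 0.98 ± 0.12. Clec12a was the 1 monocyte gene with a higher mean in U118 (-0.37 ± 0.20, adjusted p = 0.32, limma).

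**Figure D3:**
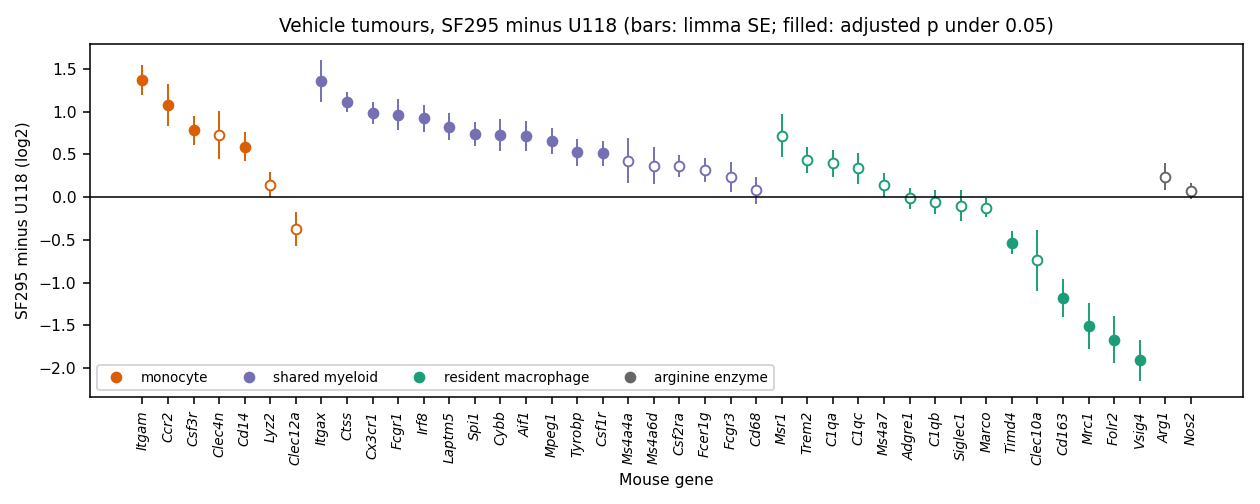
Vehicle SF295 minus vehicle U118 (log2) for each of 42 genes, ordered within role. Bars are limma standard errors and filled points have an adjusted p under 0.05. Filled points above 0 are monocyte and shared genes, from Itgam at 1.37 down to Csf1r at 0.51, and the 5 below 0 are resident macrophage genes, down to Vsig4 at -1.91.

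Markers of other tissue moved along this contrast. All 5 adipocyte genes were higher in U118, with a list mean of 7.79 to 8.30 on U118 vehicle arrays and 6.16 to 7.22 on SF295 vehicle arrays. The 8 skeletal muscle genes had a median difference of -2.31, with list means of 9.02 to 10.42 in U118 and 6.92 to 7.42 in SF295, and none was called. The part of either tissue in the U118 macrophage pattern was not tested. U118 vehicle array 2 had the highest muscle mean of the 3 and the lowest adipocyte mean. The other U118 vehicle arrays also lay above SF295 in both lists, so leaving array 2 out does not test either tissue. Without U118 vehicle array 2, the 5 resident genes stayed called, at -1.67 for Vsig4, -1.52 for Folr2, -1.46 for Mrc1, -1.08 for Cd163 and -0.64 for Timd4. The genes higher in SF295 then numbered 10, and Ccr2 missed the threshold (0.80 ± 0.24, limma SE; adjusted p = 0.0501). They also numbered 10 without SF295 vehicle array 2, and Timd4 then lost its call, as it did without U118 vehicle array 3. Cd163 lost its call without SF295 vehicle array 1. With quantile normalization Cd14, Csf1r, Cybb and Tyrobp were no longer called.

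Effector genes of macrophages split along the same contrast, in which 2.92% of all genes were higher in U118 and 4.08% in SF295. Of 22 such genes, 5 were higher in U118: the fatty acid receptor Cd36 (-2.22), the hyaluronan receptor Lyve1 (-1.83), the iron exporter Slc40a1 (-1.55), the scavenger receptor Stab1 (-1.10) and the chemokine Pf4 (-1.03). Cd36 is also expressed by adipocytes and endothelium, and Lyve1 by lymphatic vessels. The 4 higher in SF295 were Tgfb1 (0.93), the elastase Mmp12 (0.77), the lysosomal protease Lgmn (0.63) and the inflammasome sensor Nlrp3 (0.52). Of 10 dendritic cell genes, 3 were higher in U118, led by Cd209a at -2.22, and none was higher in SF295.

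Lists of other host cells gave the setting of these levels. The 5 genes of all leukocytes followed the shared myeloid genes: each gene was centred on its mean over lines, and the list median was 0.98 for SF295, 0.35 for U118, -0.11 for U251M2, -0.55 for U87M2 and -0.60 for DBM2. The 12 neutrophil genes stayed between -0.15 and 0.10 in the same measure, and their mean level was 5.05 to 5.48 on vehicle arrays, below the median gene. Itgam, Csf3r and Lyz2 are expressed by neutrophils too. Endothelial genes had their highest list median in U87M2 (0.38) and their lowest in DBM2 (-0.54), and the B cell and keratinocyte lists stayed within 0.15 of 0.

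**Figure D4:**
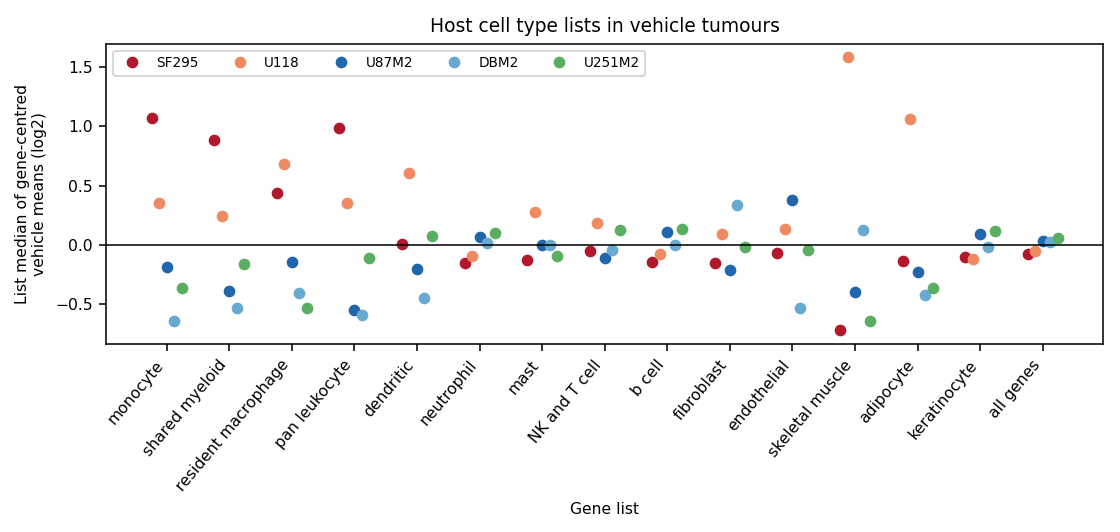
Median over each gene list of the vehicle line means, each gene centred on its mean over the 5 lines (log2), for 3 roles of the myeloid genes, 11 lists of other host cells and all mouse genes. Monocyte, shared myeloid and leukocyte lists are highest in SF295, at 1.07, 0.89 and 0.98, and the resident macrophage list is highest in U118, at 0.69.

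The ligands that draw in or maintain these cells were read on both platforms. The human arrays were labelled as cultured cells of the same lines with vehicle or V-4084, and only vehicle arrays are given. Among 15 mouse ligands and attractants 13 differed between vehicle groups by the limma F test, which called 54.3% of all mouse genes. Mouse Ccl2, a ligand of CCR2, ran from 8.68 for SF295 through 8.10 (U118), 7.98 (U87M2) and 7.49 (DBM2) to 6.88 for U251M2, and Ccl12, another CCR2 ligand, ran from 8.07 in SF295 to 5.55 in DBM2. Mouse Csf1 ran from 7.37 in U251M2 to 7.77 in DBM2.

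On the human vehicle arrays CSF1 stood at 9.87 ± 0.16 (SD, n = 2) in SF295 and 9.71 ± 0.08 (n = 3) in U118. It was lower in U251M2 (8.73 ± 0.09, n = 3), U87M2 (8.61 ± 0.05, n = 3) and DBM2 (8.03 ± 0.01, n = 3). On these arrays, labelled as cultured cells, CSF1 was highest in the 2 lines with the highest host myeloid genes and lowest in DBM2. They do not give CSF1 in the tumours. Human CCL2 had another order, at 12.25 in U251M2, 11.94 in SF295, 9.88 in DBM2, 8.18 in U87M2 and 7.30 in U118. IL34, the other ligand of CSF1R, lay between 7.14 and 7.58. A relation between ligand and host genes over these lines was not tested.

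Human RNA from the tumour cells could in principle bind mouse probes. Of the 42 genes, 36 had a human gene of the same symbol in capitals, and 4 of these had a line mean above the median human gene of 7.14: CD68, CTSS, LAPTM5 and SPI1. Human CD68, a lysosomal protein, was highest in U87M2 (11.14 ± 0.13, SD, n = 3), where mouse Cd68 was below SF295 and U118. Human CTSS, LAPTM5 and SPI1 were highest in SF295, at 8.20 ± 0.19, 7.79 ± 0.28 and 7.29 ± 0.03 (SD, n = 2), as were mouse Ctss, Laptm5 and Spi1. Of the 36 human counterparts, 18 had their highest line mean in SF295, as did 22.3% of all human genes. For 12 of these 18 the mouse gene was also highest in SF295, as it was for 23 of all 36. Human ADGRE1 also spanned more than 1, from 5.35 to 6.45, with SF295 highest, although all its line means lay below the median human gene. The part of human RNA in the mouse values was not tested.

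The second question was whether V-4084 changed the host genes. Averaged over the 5 lines with equal weight, no gene of the 42 was called by limma (0.0702% of all genes were), while 12 had an unadjusted p under 0.05 (28.6%, against 9.64% of all genes). The mean difference was positive for 35 of 42 genes, including all 18 shared genes, and for 46.2% of all genes, with medians of 0.09 and -0.01. Line by line, positive differences numbered 31 in SF295 (46.3% of all genes), 29 in U87M2 (50.2%) and 30 in U251M2 (39.8%). They numbered 27 in U118 (56.3%) and 23 in DBM2 (55.4%), where the medians of the 42 genes, 0.02 and 0.01, were those of all genes, 0.02 and 0.01. The smallest p-values belonged to Ms4a7 (0.26 ± 0.06, limma SE, adjusted p = 0.0911), C1qa (0.30 ± 0.07, 0.0911) and Tyrobp (0.26 ± 0.06, 0.133). Ccr2 had the most negative average (-0.30 ± 0.10, adjusted p = 0.323, limma). Without U118 V-4084 array 2, Ms4a7, C1qa and Tyrobp were called, without SF295 V-4084 array 3 C1qa was, and without U87M2 vehicle array 2 Ms4a7 was.

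U87M2 was the line with calls. There 8 genes rose with V-4084, against 2.49% of all genes, and 1 fell, against 1.22%. Those that rose were 4 of 18 shared genes (Ms4a4a, Tyrobp, Csf1r, Mpeg1) and 4 of 15 resident macrophage genes (Ms4a7, C1qa, C1qb, Adgre1), and the one that fell was the monocyte receptor Ccr2. Ccr2 did not stand for its group: 6 of the 7 monocyte genes had a positive difference, and the group median was 0.22. None of the 6 was called, although Lyz2 was under some alternatives given below. An unadjusted p under 0.05 was found for 21 of 42 genes (50%), against 14.9% of all genes. The median difference was 0.21 over the 42 genes and 0.00 over all genes.

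Ms4a7 read 8.04, 8.47 and 8.07 on vehicle arrays and 9.30, 9.20 and 8.99 on V-4084 arrays, a rise of 0.97 ± 0.12 (limma SE, 1.96-fold, adjusted p = 6.75e-05). Ms4a4a read 6.70, 7.52 and 6.58 with vehicle and 8.80, 8.15 and 7.96 with V-4084, a rise of 1.37 ± 0.23 (2.58-fold, adjusted p = 0.000939, limma). Both genes belong to the Ms4a cluster of tetraspan membrane proteins of myeloid cells. All V-4084 arrays lay above all vehicle arrays for both. Ms4a4a, lowest in U87M2 among vehicle tumours, lay with V-4084 within the 7.40 to 8.96 of the other lines' vehicle arrays.

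Tyrobp, the DAP12 adaptor, read 9.31, 9.19 and 9.07 with vehicle and 10.08, 9.86 and 9.64 with V-4084, a rise of 0.67 ± 0.14 (limma SE, adjusted p = 0.00495). C1qa read 9.88, 9.62 and 9.60 with vehicle and 10.57, 10.27 and 10.17 with V-4084, a rise of 0.64 ± 0.14 (adjusted p = 0.00906, limma). Vehicle and V-4084 arrays did not overlap for either gene. Csf1r rose by 0.52 ± 0.13, Mpeg1, the pore-forming perforin-2, by 0.52 ± 0.14, C1qb by 0.47 ± 0.13 and Adgre1 by 0.45 ± 0.11 (limma SE).

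Ccr2 moved the other way, from 7.22, 7.53 and 7.73 with vehicle to 6.92, 6.71 and 6.20 with V-4084, and fell by 0.88 on the log2 scale (limma SE 0.22, adjusted p = 0.0231). All V-4084 arrays lay below all vehicle arrays. The scavenger receptor Msr1 (-0.78) and Vsig4 (-0.62) also had all V-4084 arrays below all vehicle arrays. Neither passed the test, although Msr1 did under some alternatives given below. In all, 11 of the 42 genes had every U87M2 V-4084 array above every vehicle array, against 10.1% of all genes, and 3 had every one below, against 8.4%.

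The count in U87M2 rested partly on single arrays. Without V-4084 array 1 it was 3 (Ccr2, Ms4a4a, Ms4a7), without V-4084 array 2 or vehicle array 1 it was 5, and its highest value with an array left out was 11. Ms4a4a and Ms4a7 were called under each of the 35 alternatives computed, Tyrobp under 34, C1qa under 33 and Ccr2 under 31. Most alternatives left out an array of another line, which does not change the U87M2 difference, so these totals overstate stability. Ccr2 lost its call without U87M2 vehicle array 2 or 3 and without U87M2 V-4084 array 2 or 3. With quantile normalization, and also without genes under the median level, Lyz2 and Msr1 were called as well. Mpeg1, Adgre1, Csf1r and C1qb were called under 31, 30, 29 and 29. Each lost the call when the line was fitted alone, without U87M2 vehicle array 1 and without U87M2 V-4084 array 1.

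Genes of the other lists were also called in U87M2, where 2.49% of all genes were called higher and 1.22% lower. Of 22 effector genes, 4 rose: the apoptotic cell receptor Mertk (1.10 ± 0.16, limma SE), the lipid carrier Apoe (0.96 ± 0.16), the selenium carrier Selenop (0.78 ± 0.15) and Stab1 (0.49 ± 0.13). Tgfb1 was the 1 effector gene that fell (-0.48 ± 0.14). Of 10 dendritic cell genes, 2 rose, H2-Aa by 0.98 and Clec9a by 0.96. Of 15 ligands and attractants, Vegfa alone was called, at -0.67 ± 0.11, and Ccl2, the ligand of CCR2, had a difference of -0.51 ± 0.15 (adjusted p = 0.0667, limma).

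Among other host cells in U87M2, none of the 5 genes of all leukocytes and none of the 12 neutrophil genes were called. Of 8 fibroblast genes Fbln1 rose, with list means of 8.32 to 9.46 on vehicle arrays and 9.02 to 9.63 on V-4084 arrays. Tek was the 1 of 7 endothelial genes that rose. Adipocyte genes had list means of 6.22 to 6.96 with vehicle and 6.58 to 7.51 with V-4084, and muscle genes of 6.67 to 7.92 and 6.44 to 6.72, with no calls in either list. The part of these tissues in the U87M2 result was not tested.

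In the other 4 lines no gene of the 42 was called by limma. In SF295 0.01% of all genes were called and 1 of the 42 had an unadjusted p under 0.05 (Arg1, -0.35 ± 0.16, limma SE). In U118 0.01% of all genes were called, and none of the 42 had an unadjusted p under 0.05. In DBM2 no gene on the platform was called, and Marco alone of the 42 had an unadjusted p under 0.05 (0.23 ± 0.10, limma SE). In U251M2 0.0401% of all genes were called, and 9 of the 42 (21.4%) had an unadjusted p under 0.05, against 13.4% of all genes.

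The 3 smallest p-values in U251M2, where 2 V-4084 arrays were available, were those of C1qc, C1qa and Marco. C1qc read 9.76, 9.69 and 9.08 with vehicle and 9.96 and 10.32 with V-4084 (difference 0.63 ± 0.18, limma SE, adjusted p = 0.238). C1qa read 9.55, 9.45 and 9.14 with vehicle and 9.68 and 10.03 with V-4084 (difference 0.47 ± 0.16, adjusted p = 0.263, limma). Both V-4084 arrays lay above the 3 vehicle arrays for C1qc and C1qa, as for 15 of the 42 genes, against 11.1% of all genes. They lay below for 4 genes, among them Marco (-0.32 ± 0.11, adjusted p = 0.272, limma), against 22% of all genes.

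**Figure D5:**
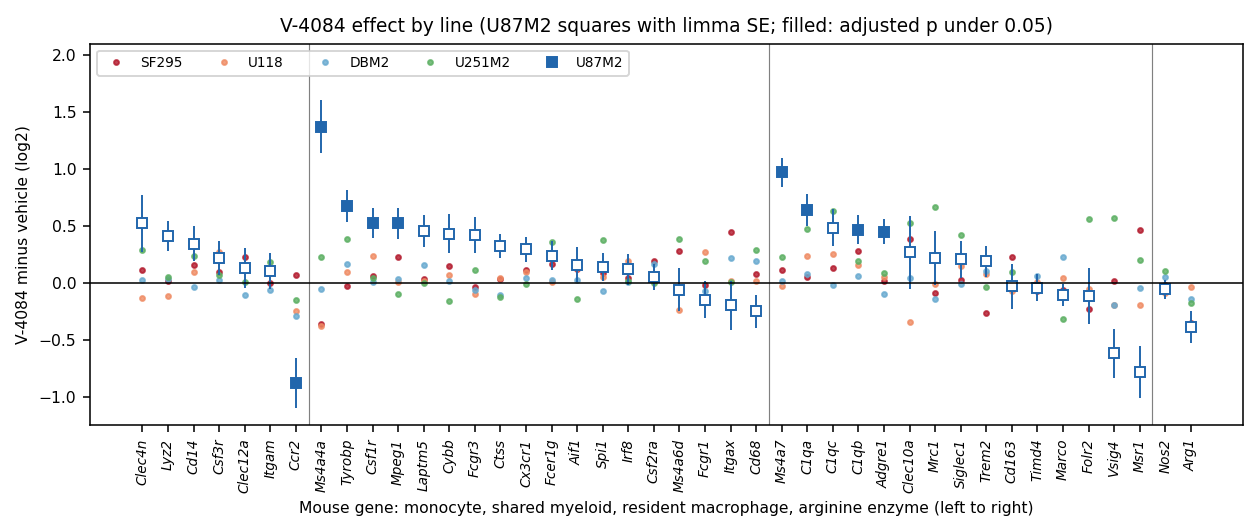
V-4084 minus vehicle (log2) for each of 42 genes in 5 lines. Blue squares are U87M2 with limma standard errors, filled where the adjusted p is under 0.05, and dots are the other lines. Filled squares rise to 1.37 at Ms4a4a and fall to -0.88 at Ccr2, and no dot of another line exceeds 0.67.

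Whether the effect of V-4084 differed between lines was tested with an F test over the 5 within-line effects. It was called for 2 of the 42 genes, Ms4a7 (adjusted p = 0.0183) and Ms4a4a (adjusted p = 0.0358, limma), against 0.341% of all genes. The effect on Ms4a7 was 0.97 in U87M2, 0.23 in U251M2, 0.11 in SF295, 0.02 in DBM2 and -0.03 in U118. For Ms4a4a it was 1.37 in U87M2 and 0.23 in U251M2, against -0.06 in DBM2, -0.36 in SF295 and -0.38 in U118. The other genes called in U87M2, Ccr2 included (adjusted p = 0.476, limma), were not shown to respond differently from the other lines. Neither gene passed without U87M2 vehicle array 1 or 3 or without U87M2 V-4084 array 1 or 2. Ms4a7 was called under 29 of 34 alternatives and Ms4a4a under 19, and Ms4a4a also failed when any 1 of 8 arrays of other lines was left out.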

How the data were processed

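Values were deposited as log2 intensities per probe set. RMA and Partek are named for them, without versions, per the submitters' processing notes. No further normalization was applied. Of 35556 mouse probe sets, 21789 name 1 gene, 1621 several and 12146 none. Only those naming 1 gene were used, and a gene with several was read from its brightest probe set by mean level. limma 3.58.1 in R 4.3.3 fitted the 10 group means to 28 mouse arrays (lmFit, then eBayes with no trend; 18 residual degrees of freedom). Two-sided p-values received Benjamini-Hochberg adjustment across 19938 genes per contrast, with a threshold of 0.05. Tests were checked on simulated data in which genes varied independently and changed genes shifted by a doubling or more. Most V-4084 differences called here were smaller, and the check does not cover genes that vary together. The genes, their roles and the other lists were chosen with earlier results of these data known.

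Values given gene by gene follow a rule. For vehicle levels it took the 3 genes of each role with the smallest F test p, and both enzymes. For V-4084 it took called genes, up to 6 in each direction by size, and otherwise the 3 smallest p. Any gene of the list could also be named. Other lists give up to 3 called genes by size. Effector genes beyond that number, the ligands named and the genes with a single line apart were chosen after their values were seen. Human arrays gave values only. Alternatives were another probe-set rule, quantile normalization, a filter on dim genes, a moderated fit with trend, the arrays of a line or of vehicle alone, the repeat number as a block and each array left out. Most same-numbered vehicle and V-4084 arrays did not deviate together (r across genes from -0.35 to 0.30 over 13 pairs, 3 above 0.1). The numbers were therefore not used to pair arrays. The highest r was that of U118 number 2, whose vehicle and V-4084 arrays both had high muscle list means (10.42 and 10.05). Mouse promoter and protein sequences were not used here.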

Additional observations from a re-analysis of the deposited data

Results flagged for a closer look

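Ms4a7 and Ms4a4a were the genes of this list whose response to V-4084 differed between lines by a test of the difference itself. The limma F test over the 5 within-line effects gave an adjusted p of 0.0183 for Ms4a7 and 0.0358 for Ms4a4a. In both, U87M2 had the largest effect of the 5 lines, at 0.97 ± 0.12 and 1.37 ± 0.23 (log2, limma SE), and the effects in the other lines ran from -0.03 to 0.23 for Ms4a7 and from -0.38 to 0.23 for Ms4a4a. Over 34 alternatives the adjusted p ran from 0.00734 to 0.105 for Ms4a7 and from 0.00767 to 0.143 for Ms4a4a.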

How the results depend on the processing

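No called difference reversed its direction under any alternative computed. With single arrays left out, the members called ran from 3 to 11 for V-4084 in U87M2, from 0 to 3 for the average and from 0 to 2 for the difference between lines. They ran from 9 to 16 for SF295 above all 4 other lines, from 3 to 7 for DBM2 below all, from 10 to 17 for SF295 above U118, from 4 to 5 for SF295 below U118, from 249 to 269 over the vehicle pairs and from 41 to 42 for the vehicle F test. The counts for SF295, U118, DBM2 and U251M2 with V-4084 stayed at 0. Without genes under the median level, 2 genes were called for the average (C1qa, Ms4a7), and 3 rather than 5 were lower in SF295 than in U118, since Cd163 and Vsig4 were themselves removed. The difference between lines was called for 1 gene with trend and robust moderation. With the repeat number as a block over all groups it was called for 1, and with line by repeat number as a block for 0, while the count in U87M2 was 9 under either block, with Csf1r and Adgre1 not among the 9 under line by repeat number, and the vehicle pairs gave 261. Among called vehicle pairs, 7235 of 7448 gene results with an array left out and 1529 of 1572 under other alternatives kept their call. For V-4084 these were 230 of 252 and 57 of 63. Most arrays left out belonged to neither group of the comparison and left its difference unchanged. The shares with an array left out therefore overstate stability. Nos2 lost its vehicle F call with quantile normalization and without U118 vehicle array 1. The cause of these changes was not tested. With 2 or 3 arrays a group, small shifts of dim genes such as Nos2 and Marco are the least certain.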
